A study of Mus musculus with 8 samples.

Results

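Proteasome genes were taken as all autosomal genes with a RefSeq mRNA in the mouse genome build mm10 whose symbol starts with Psma, Psmb, Psmc, Psmd, Psme, Psmf or Psmg. The rule gave 50 of 20021 autosomal genes, and it left out 1 gene on the X chromosome, Psmd10. Chromatin accessibility at these genes was read from ATAC-seq of brown adipose tissue (BAT) of 2 WT mice and 2 Dot1L-BKO mice. Both groups were fed chow, reached 12 weeks of age and spent their last 4 hr at 4°C. The Dot1L-BKO mice carried floxed alleles of Dot1l, which encodes the histone H3K79 methyltransferase, and a Ucp1-Cre transgene, while the WT mice were Dot1l f/f controls. Ucp1-Cre acts in Ucp1+ cells, so that other cell types in BAT of the Dot1L-BKO mice still carried an intact gene.

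ATAC-seq uses the Tn5 transposase, which cuts DNA that is free of nucleosomes, and peaks of reads mark open chromatin. The values used here are the summits of such peaks, meaning the 1 base with the highest pileup in each peak, each with the score of its peak, which is the q-value of the peak caller as −log10. A single list of 32173 summits was made from the 4 libraries, and its name sets those of WT against those of Dot1L-BKO mice. No library has a value of its own in this list, its read depth is unknown, and no replicate error can be given. A difference between WT and Dot1L-BKO mice could therefore not be tested for any gene. The methods of the study describe MACS2 peaks of each sample that were joined into a union of regions, while every peak name in the deposited list sets the WT libraries against those of Dot1L-BKO mice. It is not stated whether this list is that union, and so not whether the Dot1L-BKO libraries entered it as further signal or as a control. In the first case a summit marks open chromatin in the pool of libraries, and in the second it marks a site with more reads in WT than in Dot1L-BKO mice. The list alone does not tell these apart, and every count and score below has to be read with both in mind. Nuclei came from whole tissue, where the share of cells with an open site cannot be told apart from its accessibility per cell. RNA-seq of the same tissue was not analysed here.

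The proteasome degrades ubiquitinated proteins. Its 20S core is a barrel of alpha rings, which gate the entry, and beta rings, which hold the proteolytic sites. The 19S regulatory particle caps the barrel, where its ATPases unfold substrates and its non-ATPase subunits bind and remove ubiquitin. PA28 and PA200 are other caps, dedicated chaperones assemble the particle, and in cells exposed to interferon 3 catalytic subunits of the core are exchanged for Psmb8, Psmb9 and Psmb10, giving the immunoproteasome. In BAT, cold exposure raises proteasome activity through the transcription factor Nfe2l1, which binds antioxidant response elements (ARE) of proteasome genes and is needed for thermogenic fat to keep its protein quality.

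Summits were found at the start of nearly every proteasome gene. Of the 50 genes, 47 (94%, 95% Wilson interval 83.8% to 97.9%) had a summit within 1 kb of a transcription start site (TSS), called a promoter summit. Over all autosomal genes the share was 46.8%, or 9371 of 20021. Within 10 kb of a TSS, 48 proteasome genes (96%) had a summit, against 55.8% of all autosomal genes. With a score of at least 10 required, 26 proteasome genes (52%) had a promoter summit, against 24.5% of all autosomal genes. These intervals cover counting error only, and no test was made of the difference between the shares, since the family was chosen with earlier results of these data known.

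While summits were frequent at these genes, their median score was near that of all genes. Over the 47 genes with a promoter summit, the median of the highest score at each gene was 11.0, with quartiles of 6.02 and 19.2 and a range from 2.15 to 66.4. Over all 9371 autosomal genes with a promoter summit the median was 10.9, with quartiles of 5.68 and 20.9. The score is a statistical confidence for a peak, not a level of accessibility. It takes only 2606 distinct values over the list, and ties are common. For example, Psma5, Psma6 and Psmb9 all had 30.1, and Psma7, Psmb10, Psmd14 and Psme1 all had 6.02.

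**Figure D1:**
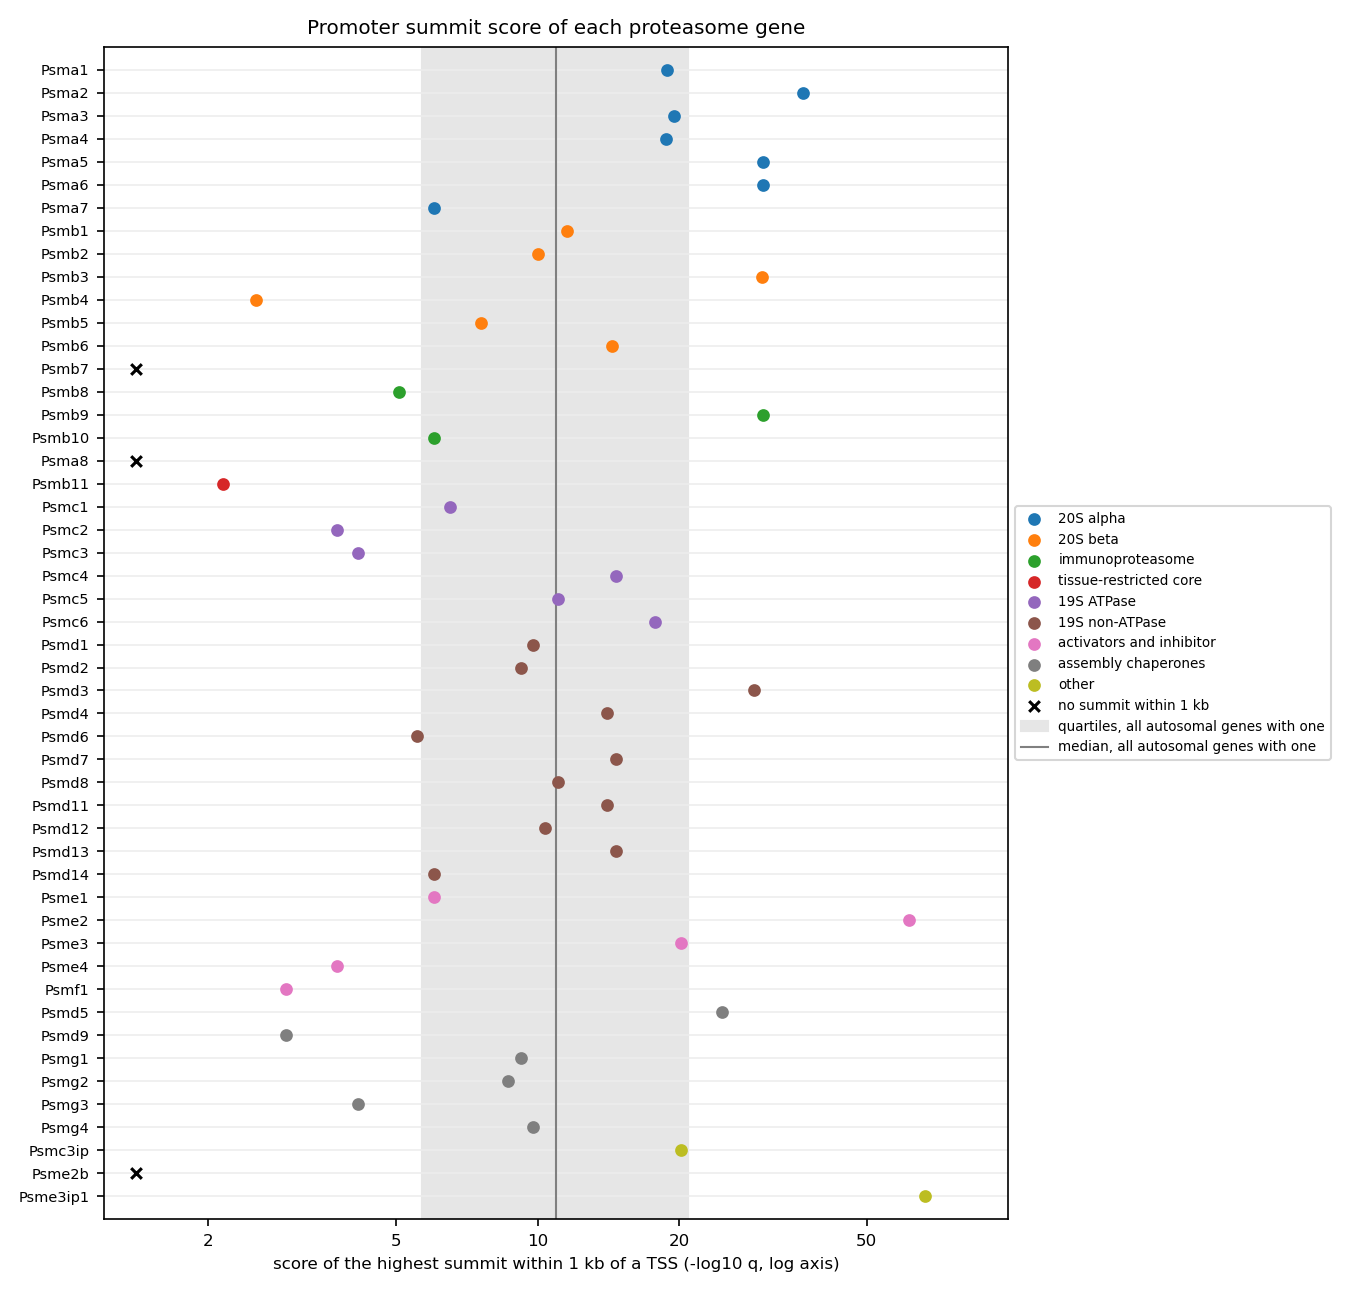
The plot gives the score (−log10 q, log axis) of the highest summit within 1 kb of a TSS for each of the 50 proteasome genes, with the groups in colour, and crosses for genes without such a summit. The grey band spans the quartiles (5.68 to 20.9) and the line the median (10.9) of all autosomal genes with a promoter summit. The 20S alpha genes sit to the right of the line except Psma7, and crosses mark Psmb7, Psma8 and Psme2b.

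Of all groups of 5 or more genes, the 20S alpha group had the highest median promoter score, 19.4. All of the 7 genes Psma1 to Psma7 had a promoter summit, and 6 of them reached a score of 10. Psma2 had the highest, 36.7, at 65 bp before its TSS, which ranked 1089 in the list and was at or above the score of 90.0% of genes with a promoter summit. Psma5 followed with 30.1 at 125 bp after its TSS, in the 5′ UTR of exon 1. Psma6 also had 30.1, at 87 bp before the second of its 2 start sites, which lies in intron 1 of the longer transcript. The remaining genes were Psma3 (score 19.4), Psma1 (score 18.9), Psma4 (score 18.8) and Psma7 (score 6.02), and Psma7 alone fell below the median of all genes.

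Psma6 and Psmb10 had the most summits of the family within 10 kb of a TSS, 6 each. At Psma6, 3 of these lay within 1 kb of one of its start sites, with scores of 30.1, 7.05 and 2.92. A further summit with a score of 14.0 lay 1166 bp before the second TSS, and those at 1875 bp before it and 3827 bp after the first TSS had scores of 2.53 and 5.07. All of the 6 were in intron 1 of Psma6, between or near its start sites.

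The promoter of Psma2 is shown because it holds the best-scored summit of the 20S core and repeated matches to one sequence pattern. The run below is the 150 bases before the Psma2 TSS, chr13:14613092-14613241 of mm10, plus strand, as RefSeq's GRCm38.p6 assembly has it. Capitals mark GCATGCGC, the pattern of nuclear respiratory factor NRF1, on either strand, and CCAAT, the pattern of NF-Y. The summit lies at base 86.
Psma2: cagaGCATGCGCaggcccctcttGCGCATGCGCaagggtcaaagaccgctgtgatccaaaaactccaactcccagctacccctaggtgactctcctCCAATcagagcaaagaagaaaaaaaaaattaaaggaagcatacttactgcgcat
The NRF1 pattern starts at 146 and 125 bp before the TSS on the printed strand, and at 127 bp before it on the opposite strand. A further match, outside the printed run, starts 190 bp before the TSS. The matches at 127 and 125 bp overlap, since the pattern reads nearly the same on both strands. Mrpl32, on the opposite strand, starts 205 bp upstream of the Psma2 TSS. The summit and all of these matches thus lie between both start sites. They cannot be assigned to one of the genes, although the summit is nearer to Psma2. A match of letters is a description of the sequence, not a bound site.

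The 20S beta genes were less uniform. Psmb1 to Psmb7 encode the constitutive beta subunits, and 6 of the 7 had a promoter summit, with 4 at a score of 10 or above and a median of 10.8. Psmb3 had the highest score, 29.9 at 192 bp before its TSS, and Psmb6 had 14.4 at 78 bp before. Psmb1 had 11.5 at 72 bp and Psmb2 10.01 at 103 bp before the TSS. Psmb4 had only 2.53, from a summit in intron 1 at 248 bp after its TSS, and this was among the 5 lowest promoter scores of the family. Psmb7, which encodes the subunit with trypsin-like activity, had no summit within 1 kb. Its nearest summit lay 8995 bp before the TSS with a score of 2.49, outside any gene. The list does not tell whether reads at Psmb7 fell short of the caller's thresholds by little or by much.

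Psmb5 encodes the chymotrypsin-like subunit of the constitutive core. It had 1 promoter summit with a score of 7.58, 134 bp before the TSS. The 150 bases before the TSS, chr14:54617996-54618145 of mm10, minus strand, are given because they hold both this summit, at base 17, and the ARE pattern TGACNNNGC, in capitals.
Psmb5: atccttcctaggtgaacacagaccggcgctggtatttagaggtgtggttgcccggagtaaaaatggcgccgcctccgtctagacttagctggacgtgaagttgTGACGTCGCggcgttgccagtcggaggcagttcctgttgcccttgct
The ARE pattern of Psmb5 starts 47 bp before the TSS.

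The immunoproteasome genes all had a promoter summit, but only Psmb9 had a high score. Psmb9 had a single summit with a score of 30.1, which ranked 1558 in the list, 107 bp before its TSS. Psmb10 had a score of 6.02 in coding exon 2, 680 bp after its TSS. Psmb8 had 2 summits, with a score of 5.07 at 560 bp before and of 2.92 at 141 bp after its TSS. The median of the 3 genes was 6.02, and at a score minimum of 10 only Psmb9 was left. When each gene was set beside the constitutive subunit that it replaces, the scores were 5.07 for Psmb8 and 7.58 for Psmb5, 30.1 for Psmb9 and 14.4 for Psmb6, and 6.02 for Psmb10 while Psmb7 had no promoter summit. The pairs thus had no common order.

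The Psmb9 summit is shared with Tap1, which encodes a subunit of the peptide transporter of antigen presentation. Psmb9 and Tap1 are transcribed away from each other, with 226 bp between their start sites, and the summit (chr17:34187437) lies 107 bp from the first and 119 bp from the second. The summit cannot be assigned to one of the genes. The sequence between both start sites, chr17:34187331-34187555 of mm10, minus strand, is printed from the Tap1 side to the Psmb9 side, because it carries the best-scored immunoproteasome summit, at base 119. Capitals mark GGGCGG, the pattern of SP and KLF factors, and CCAAT, here on the opposite strand as its reverse complement.
Psmb9-Tap1: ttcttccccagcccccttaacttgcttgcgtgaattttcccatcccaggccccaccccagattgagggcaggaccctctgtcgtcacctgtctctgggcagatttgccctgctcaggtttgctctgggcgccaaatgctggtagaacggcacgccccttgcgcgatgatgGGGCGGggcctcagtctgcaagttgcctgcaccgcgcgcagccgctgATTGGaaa
Neither GAAANNGAA, the pattern of interferon-stimulated response elements (ISRE), nor TTCNNNGAA, the pattern of STAT factors, occurs in the RefSeq promoter of Psmb9, which runs from 250 bases before to 50 after the TSS.

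At Psmb8, the higher summit lay upstream of the promoter proper. The first of the runs below holds the 151 bases around it, chr17:34197560-34197710 of mm10, plus strand, with the summit at base 76 and TGACGTCA, the pattern of CREB and ATF factors, in capitals 534 bp before the TSS. The second is the 150 bases before the TSS, chr17:34198045-34198194, plus strand, in which the STAT pattern is in capitals at 97 bp before the TSS. They are shown since the printed patterns belong to different parts of the gene's upstream region, and only the first run holds a summit.
Psmb8 summit: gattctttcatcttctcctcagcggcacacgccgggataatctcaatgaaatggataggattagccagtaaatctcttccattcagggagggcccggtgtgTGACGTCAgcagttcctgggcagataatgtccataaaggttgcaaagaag
Psmb8: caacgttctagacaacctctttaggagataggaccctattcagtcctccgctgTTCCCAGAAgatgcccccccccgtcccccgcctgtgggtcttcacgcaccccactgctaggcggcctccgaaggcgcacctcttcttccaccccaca
Farther downstream, a summit with a score of 11.6 lay 4301 bp after the Psmb8 TSS, beyond the end of Psmb8 and 1983 bp from the TSS of Tap2, the other subunit of the transporter. It had a higher score than any summit at the Psmb8 promoter. Another, with a score of 5.07, lay 7219 bp after the Psmb8 TSS and 935 bp from the Tap2 TSS.

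Psmb10 lies apart from these genes, on chromosome 8. Next to the summit in exon 2, it had one of nearly the same score, 5.55, in intron 4 at 1408 bp after the TSS. The other 4 summits within 10 kb lay in or near Ctrl, Lcat and Slc12a4, with scores from 1.54 to 3.75. With the window narrowed to 500 bp, Psmb10 had no summit. Its RefSeq promoter had a GC content of 45.7% and an observed to expected CpG ratio of 0.192, against medians of 59.2% and 0.764 over the proteasome genes in the promoter table.

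**Figure D2:**
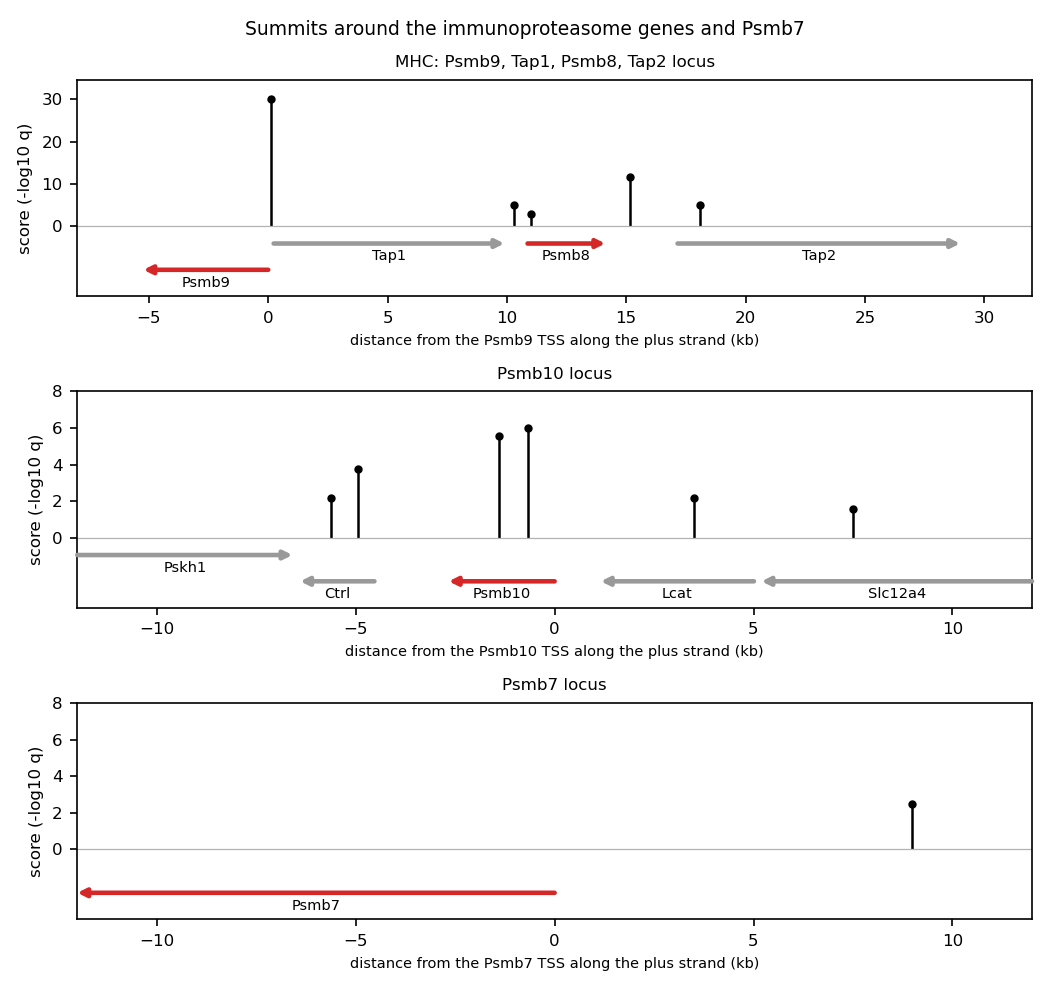
Each panel plots the score (−log10 q) of every summit against its distance in kb from the TSS of Psmb9, Psmb10 or Psmb7, counted along the plus strand, with genes drawn as arrows in their direction of transcription and the proteasome genes in red. The summit with a score of 30.1 stands between Psmb9 and Tap1, the Psmb10 locus has 6 summits of at most 6.02, and the Psmb7 locus has 1 summit of 2.49 about 9 kb before the gene.

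The tissue-restricted core genes were at the low end. Psma8, an alpha subunit of the testis, had no summit within 10 kb, and its nearest lay 23039 bp before the TSS. Psmb11, the catalytic subunit of the thymus, had a score of 2.15 in its coding exon, 643 bp after the TSS, the lowest promoter score of the family. Psmb11 and Psmb5 are neighbours on chromosome 14, and the Psmb5 promoter summit lies 7181 bp before the Psmb11 TSS. It is counted among the summits within 10 kb of both genes.

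All of the 6 genes of the 19S ATPase ring had a promoter summit, with 3 at or above a score of 10 and a median of 8.78. Psmc6 had the highest score, 17.7 in coding exon 1, followed by Psmc4 with 14.7 and Psmc5 with 11.0. Psmc1 had 6.53, Psmc3 had 4.16 in intron 1, and Psmc2 had 3.75 with a second summit of 2.92. The Psmc5 summit lay 138 bp before its TSS but 37 bp from the TSS of Ftsj3, an rRNA methyltransferase gene on the other strand.

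The 11 genes for 19S non-ATPase subunits all had a promoter summit. Of these, 7 reached a score of 10, the median was 11.0, and none had a second summit within 1 kb. Psmd3, a scaffold subunit, had the highest score, 28.8 at 241 bp before the TSS. Psmd7 and Psmd13 had 14.7 each, while Psmd4, a ubiquitin receptor, and Psmd11 had 14.0 each. Psmd8 had 11.0 and Psmd12 10.4. The large scaffold subunits Psmd1 and Psmd2 had 9.78 and 9.21, with summits 1 bp and 18 bp before the TSS. Psmd14, the deubiquitinase of the particle, had 6.02 and Psmd6 had 5.55. With the 20S alpha and beta genes and the ATPases, 30 of 31 constitutive subunit genes had a promoter summit, 20 had one that scored 10 or more, and the median was 12.8.

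Promoters of the regulatory particle were chosen to show the pattern CCGGAAG, of ETS factors, which a larger share of the family held than of all genes. Psmc6 and Psmd6 had the highest score of the ATPases and the lowest of the non-ATPases, and in both cases the summit lay downstream of the TSS, outside the bases shown. The Psmc6 run is chr14:45329574-45329822 of mm10, plus strand, and the Psmd6 run is chr14:14120946-14121095, minus strand. Capitals mark the ETS pattern, the SP pattern GGGCGG on either strand and, near the start of the Psmc6 run, the ARE pattern on the opposite strand.
Psmc6: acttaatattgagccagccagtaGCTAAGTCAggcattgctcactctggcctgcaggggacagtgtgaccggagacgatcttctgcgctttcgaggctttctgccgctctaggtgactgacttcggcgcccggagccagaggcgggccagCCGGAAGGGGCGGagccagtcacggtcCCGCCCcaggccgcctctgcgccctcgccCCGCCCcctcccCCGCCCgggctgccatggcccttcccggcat
Psmd6: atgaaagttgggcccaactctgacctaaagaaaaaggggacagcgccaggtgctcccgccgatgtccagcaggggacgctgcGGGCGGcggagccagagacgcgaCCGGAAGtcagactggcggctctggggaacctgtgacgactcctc
In Psmc6 the ETS pattern, 100 bp before the TSS, is followed directly by GGGCGG, so that they read as one run of capitals, and CCGCCC occurs 3 more times between it and the TSS. In Psmd6 the ETS pattern starts 45 bp and GGGCGG 68 bp before the TSS.

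Among the activators and the inhibitor, Psme2 stood apart. Psme2 encodes the beta subunit of PA28, the interferon-inducible cap, and had a summit with a score of 61.5 at 370 bp before its TSS, which ranked 309 in the list and was at or above 97.1% of the genes with a promoter summit. This summit lay nearer to the TSS of Rnf31, a ubiquitin ligase gene on the other strand, at 271 bp. Psme1, the gene for the alpha subunit of PA28, is a neighbour of Psme2 on chromosome 14 and had only 6.02 at 219 bp after the TSS and 4.16 at 545 bp before. Psme3, which encodes the nuclear PA28 gamma, had 20.2. Psme4, the gene for PA200, had 3.75 and 3.32, and Psmf1, the gene for the inhibitor PI31, had 2.92 in intron 1, which was among the 5 lowest. The median of the 5 genes was 6.02, and 2 of them reached a score of 10.

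The Psme2 and Psme3 sequences show the patterns around the best-scored summits of this group. The Psme2 run is the 201 bases around its summit, chr14:55591371-55591571 of mm10, minus strand, with the summit at base 101. The Psme3 run is the 150 bases before its TSS, chr11:101316063-101316212, plus strand, with the summit at base 20. Capitals mark the SP, ETS and NF-Y patterns on either strand.
Psme2 summit: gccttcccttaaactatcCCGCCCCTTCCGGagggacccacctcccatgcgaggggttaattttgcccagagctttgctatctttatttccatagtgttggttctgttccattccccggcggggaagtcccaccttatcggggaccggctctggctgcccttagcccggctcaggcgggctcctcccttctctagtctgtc
Psme3: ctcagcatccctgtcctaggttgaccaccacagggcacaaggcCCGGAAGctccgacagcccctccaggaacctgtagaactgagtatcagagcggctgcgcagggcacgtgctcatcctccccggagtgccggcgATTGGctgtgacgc
In the Psme2 run, CCGCCC and CTTCCGG, the reverse complements of the SP and ETS patterns, follow each other directly, and the rest of the run, the summit included, holds none of the 10 patterns searched. In Psme3 the ETS pattern starts 107 bp before the TSS and the CCAAT pattern 14 bp before it.

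Of the 6 genes for assembly chaperones, all had a promoter summit, but 1 reached a score of 10, Psmd5, with 24.6 at 47 bp before its TSS. Psmg1 to Psmg4, whose products assemble the alpha ring, had 9.21, 8.65, 4.16 and 9.78, in that order. Psmd9, a chaperone of the ATPase ring, had 2.92 in coding exon 1, among the 5 lowest. The summit of Psmg2 was 126 bp from its TSS and 106 bp from that of Cep76. Pomp, the chaperone of core maturation, bears no Psm symbol and is given with the regulators.

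The prefix of the symbol also takes in 3 genes whose products are not known as proteasome subunits. Psme3ip1, whose product binds PA28 gamma, had the highest score of the family, 66.4, which ranked 223 in the list. This summit lay 178 bp before the TSS of Psme3ip1 and 37 bp from the TSS of Rspry1. Psmc3ip, whose product acts in meiotic recombination, had 20.2 at 76 bp before the TSS. Psme2b, a gene with a single-exon mRNA related to Psme2, had no summit within 10 kb, and the nearest was 74001 bp away. Reads from near-identical copies can be lost or split in alignment, and how such reads were treated is not given in the sources used here. How alike Psme2b and Psme2 are around their start sites was not measured, and a part of alignment in the missing summit was not tested. Without these 3 genes, 45 of 47 proteasome genes had a promoter summit.

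**Figure D3:**
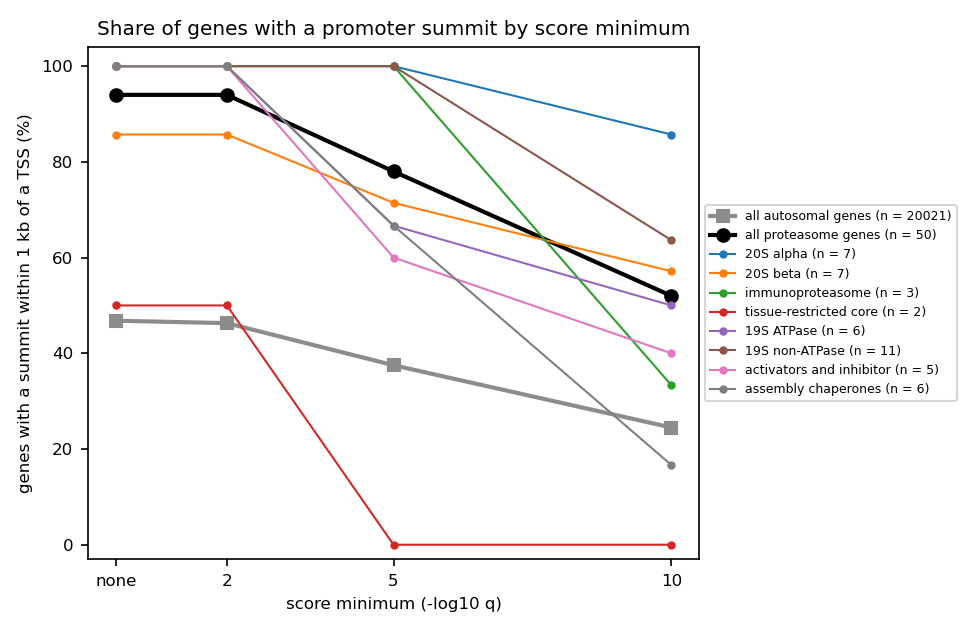
The plot gives the percentage of genes with a summit within 1 kb of a TSS (y axis) that passes a minimum score (x axis: none, 2, 5 or 10, −log10 q) for all autosomal genes, for the 50 proteasome genes and for the groups. The family falls from 94% to 78% at a minimum of 5 and 52% at 10, all autosomal genes from 46.8% to 37.5% and 24.5%, and the assembly chaperones have the steepest fall of the larger groups, from 6 of 6 to 1 of 6 genes.

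The promoter summits lay close to the TSS, with 27 upstream and 20 downstream. The median distance was 125 bp, against 143 bp over all autosomal genes with a promoter summit. Within 100 bp of the TSS lay 36.2% of the highest summits of proteasome genes and 38.1% of those of all genes, and 42.6% and 42.4% were downstream. Of the 47 summits, 14 were in an exon (6 in a 5′ UTR and 8 in coding sequence), 7 in an intron and 26 outside the gene. Summits far from the TSS were those of Psmb10, Psmb11, Psme4, Psmb8, Psmf1 and Psmc3, at 415 to 680 bp. More than 1 summit within 1 kb was found at 7 genes (14%), against 8.45% of all autosomal genes.

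**Figure D4:**
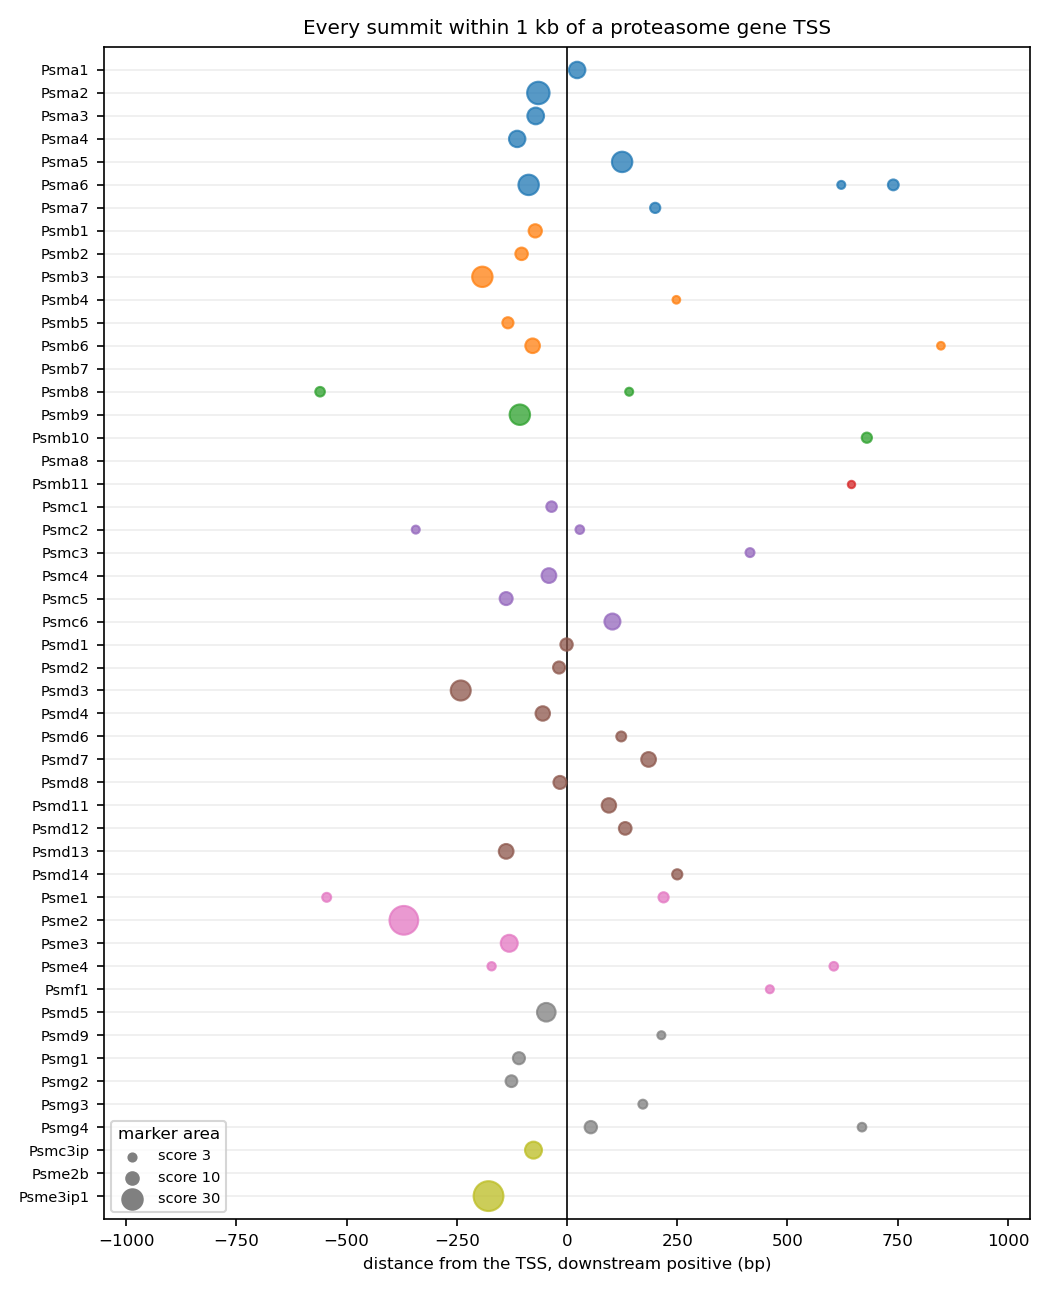
The plot places every summit within 1 kb of a proteasome gene TSS by its distance from the TSS in bp (downstream positive), with the marker area growing with the score and the same group colours as in the plot of scores. Most large markers lie within 250 bp of the TSS, Psme2 at −370 bp is the exception, and Psmb7, Psma8 and Psme2b have none.

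Some of the promoters are shared. A gene on the opposite strand started within 1 kb upstream (or overlapped by up to 200 bp) for 10 proteasome genes (20%), against 9.32% of all autosomal genes. The partners were Mrpl32 for Psma2, AY074887 for Psma4, Ss18l1 for Psma7, Tap1 for Psmb9, Dnajc2 for Psmc2, Ftsj3 for Psmc5, Sirt3 for Psmd13, Rnf31 for Psme2, Rspry1 for Psme3ip1 and Cep76 for Psmg2. All of the 10 had a promoter summit, against 90.7% of all genes with such a partner, and the median score was 16.7 both in these 10 and over all such genes. In the 40 proteasome genes without a partner, 37 (92.5%) had a promoter summit, against 42.3% of all genes without one, with medians of 10.01 and 9.55. For 5 of the genes the nearest TSS was that of another gene, namely Psmc5, Psmd13, Psme2, Psme3ip1 and Psmg2. With every summit given only to the nearest TSS, 42 proteasome genes had one, and the highest scores of the family, at Psme3ip1 and Psme2, went to the neighbours.

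The base composition of the promoters moves with these shares. RefSeq promoter sequences (250 bases before to 50 after the TSS) were at hand for 42 of the 50 genes and for 15996 autosomal genes. The observed to expected CpG ratio, the highest over the promoters of a gene, had a median of 0.764 in proteasome genes and 0.641 in all genes. At a ratio of 0.6 or above, 31 of 31 proteasome genes had a promoter summit, against 74.5% of 8536 genes. Below 0.6, 10 of 11 proteasome genes did, against 18.0% of 7460 genes. Among these 11 were the immunoproteasome genes, Psmb11, Psmb4 and Psme2b, of which Psme2b had none. The part of base composition in the share of 94% was not tested further.

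Patterns for 10 factors were counted in the same promoters on both strands. A gene was counted once if any of its promoters held the pattern, so that shares of promoters below are shares of genes. Genes with more than 1 start site had more chances of a match. They made up 6% of proteasome genes and 17.3% of all autosomal genes. CCGGAAG, of ETS factors, was found for 16 of 42 proteasome genes (38.1%), against 13.5% of all genes and 22.7% of those with a promoter summit. ARE patterns, TGACNNNGC, were found in 6 (14.3%), against 14.9% and 17.6%. These were Psmb5 at −47, Psmb6 at −9, Psmc6 at −227, Psmd9 at −31, Psmd12 at −247 and Psme4 at −7 bp from the TSS. The share of proteasome promoters with this short ARE pattern was thus close to that of all promoters. Since the pattern fixes only 6 of 9 bases, it is frequent in any sequence, and the counts say nothing of binding by Nfe2l1.

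Of the other patterns, GGGCGG (SP and KLF) was found in 54.8% of proteasome promoters, against 51.2% of all promoters and 72.8% of those with a summit, and CCAAT (NF-Y) in 35.7%, against 42.2% and 44.0%. GAAANNGAA (ISRE) was found in 7 promoters (16.7%), against 9.20% and 7.35%, at Psmb3, Psmb4, Psmc2, Psmd4, Psmd9, Psme1 and Psmg4. No immunoproteasome gene is among these, while Psme1, one of the 7, is a gene that interferon is known to induce. GCATGCGC (NRF1) was found in 3 promoters, of Psma2, Psmc5 and Psmg1 (7.14%, against 4.09% and 6.90%). AAGATGGC (YY1) was found in 3, of Psma2, Psmb6 and Psmc5 (7.14%, against 3.60% and 5.61%). TTCNNNGAA (STAT) was found in 3, of Psmb8, Psmd2 and Psmg1 (7.14%, against 9.01% and 7.94%). TATAAA, the TATA box, was found in 4 (9.52%, against 14.7% and 7.50%), and TGACGTCA (CREB and ATF) in 0, against 2.68% and 4.04%. The TGACGTCA match near Psmb8 is outside this window. None of these differences was tested.

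**Figure D5:**
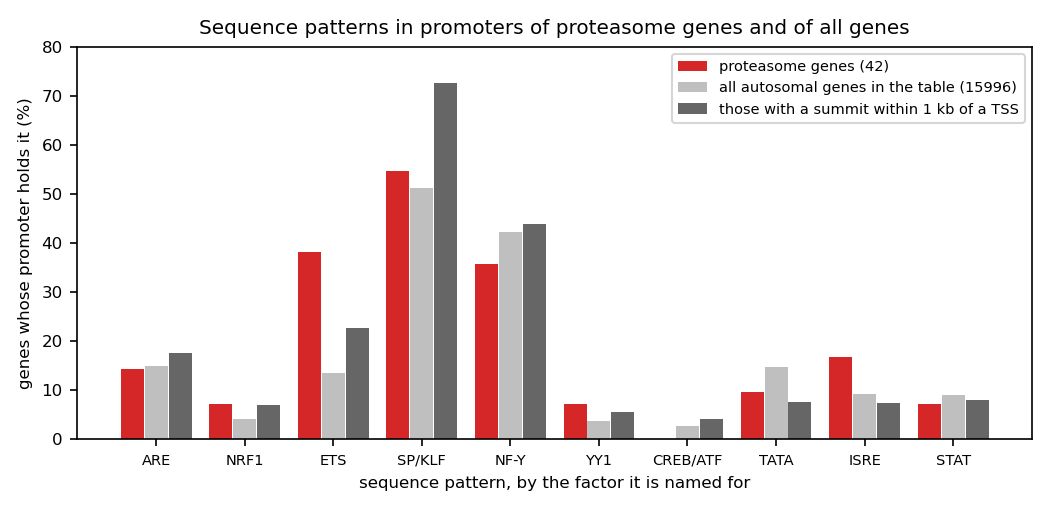
Bars give the percentage of genes with a promoter (250 bases before to 50 after the TSS, both strands) that holds each of 10 patterns. They are given for 42 proteasome genes, all 15996 autosomal genes in the promoter table and those of them with a summit within 1 kb. The ETS pattern has the largest gap to all genes, 38.1% against 13.5%. The SP/KLF pattern has the largest gap to genes with a summit, 54.8% against 72.8%, while the ARE bars are nearly level at 14.3%, 14.9% and 17.6%.

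Beyond 1 kb, the family had 41 pairs of a gene and a summit within 10 kb. Of these, 14 were within 1 kb of the TSS of another gene, with a median score of 4.62, and 27, at 16 proteasome genes, were near no TSS, with a median of 3.75. The median over pairs within 1 kb was 9.78. The distal summits with the highest scores that were near no TSS were at 5339 bp after the TSS of Psmc3ip (score 14.7), 1166 bp before the second TSS of Psma6 (score 14.0) and 4301 bp after that of Psmb8 (score 11.6). For 44 of the 48 genes with a summit within 10 kb, the highest of them was the promoter summit.

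Genes that regulate or assist the proteasome were read in the same way. Of 24 such genes, 22 (91.7%) had a promoter summit, against 46.8% of all autosomal genes. Their median score was 20.1, against 11.0 in the proteasome genes and 10.9 over all autosomal genes with a promoter summit. Nfe2l1, the factor that drives proteasome genes in cold-exposed BAT, had 4 summits within 1 kb and 8 within 10 kb of its start sites, the highest with a score of 36.7. Its relative Nfe2l2 also had 36.7. Rad23b, a shuttle of ubiquitinated proteins, had the highest score of the list, 54.7. Vcp, the segregase that extracts substrates, had 35.9, the ubiquitin receptor Adrm1 had 31.7, and Pomp had 20.2. Low scores were those of Ecpas with 4.61 and of Akirin2, which brings proteasomes into the nucleus, with 6.02. Ddi2, the protease that cleaves Nfe2l1 into its active form, had no promoter summit and 1 summit within 10 kb.

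Of 10 genes of antigen processing and interferon response, 9 had a promoter summit, against 46.8% of all autosomal genes. Their median score was 12.4, near the 10.9 of all autosomal genes with a promoter summit. Tap1 had 30.1, from the summit that it shares with Psmb9, and Erap1, a peptidase that trims antigenic peptides, had 16.7. B2m and H2-K1, which encode parts of the MHC class I complex, had 14.5 and 12.4, and Irf1 had 10.9. Nlrc5, the activator of MHC class I genes, had no summit within 10 kb.

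The tissue label was checked with marker genes. Over all autosomal genes, 46.8% had a promoter summit and 55.8% had a summit within 10 kb. Of 10 brown adipocyte markers, 9 had a promoter summit, Ucp1 with a score of 33.7 and Cidea with 61.5 among them, and Zic1 had none. Of 10 leukocyte markers, only Cd68 had one, with a score of 2.15, and Ptprc, Adgre1 and Csf1r had none within 10 kb. Promoter summits were found at 1 of 5 endothelial markers (Cdh5, score 2.59), 1 of 5 progenitor markers (Pdgfra, score 4.16) and 0 of 5 skeletal muscle markers. The scores of these markers bear on the immunoproteasome genes, which leukocytes also use, and the part of leukocytes in the Psmb8, Psmb9 and Psmb10 summits was not tested.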

How the data were processed

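Nuclei of BAT were taken from each of 2 WT and 2 Dot1L-BKO mice for ATAC-seq. Per the submitters' processing notes, bcl2fastq 2.2, CASAVA, cutadapt 1.2.1, BWA and MACS2 2.1.1 were used with the build mm10. The authors kept peaks with q-values of at most 0.05 and an enrichment of at least 2-fold, and deposited 1 summit list whose score is the −log10 of the q-value. The methods speak of peaks per sample joined into a union, but the peak names of this list set WT against Dot1L-BKO libraries, and how that list relates to the union is not given in the sources used here. Nor is the treatment of duplicates and of mitochondrial or multi-mapped reads.

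Summits were placed against TSSs of curated RefSeq mRNAs of GRCm38.p6, the same build, with no summit past a chromosome's end. Psma8, Psmb1, Psmb2, Psmb7, Psmc3, Psmd3, Psmd7 and Psmg2 were not in the RefSeq promoter table. Paaf1 was not used here. Some genes of the other lists are counted but not reported here by name. The members and gene lists were chosen with earlier results of these data known. Named in full were members without a promoter summit, the 5 highest and 5 lowest, those with most summits within 10 kb, the immunoproteasome, PA28 and tissue-restricted genes, members that encode no subunit, and genes of other lists without a promoter summit. Other members are named by group.

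Placement was tested on simulated data for the 1 kb window over 20021 genes, where 140 of 140 positions planted within the window were found and 0 others. The positions were planted only at genes with a single TSS far from any other, so that shared promoters were not tried. Shares have 95% Wilson intervals where printed. Alternatives changed the score minimum, window, transcripts and assignment of summits, and merged summits within 500 bp. The tools were matplotlib 3.10.9, scipy 1.17.1, pandas 2.3.3 and numpy 2.4.6 in Python 3.11.15.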

Additional observations from a re-analysis of the deposited data

How the results depend on the processing

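Of 58 alternative values for 6 results, 52 stayed within 1.5 times the reported count or, for the median score, within the range of its counting error. The others came from a score minimum of 10, which left 26 proteasome genes with a summit within 1 kb and 27 within 10 kb of a TSS, a median promoter score of 18.8, 1 immunoproteasome gene and 4904 of all autosomal genes, and from keeping only the constitutive 20S and 19S subunits, which left 30 genes by construction. A minimum of 10 removes lower scores, so that the count falls and the median rises with it. Narrowing the window to 1 kb upstream and 100 bp downstream left 33 proteasome genes, against 36.4% of all autosomal genes, and giving each summit only to its nearest TSS left 42, against 43.0%. No paired analysis was possible because each peak has 1 score and no value per library, and for the same reason leaving out a replicate could not be run. Depth per library is unknown, so that the 3 genes without a promoter summit cannot be told apart from genes whose peaks fell short of the thresholds.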

Other observations

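Several members of the proteasome family are neighbours, and their windows overlap. Within 10 kb of a TSS the family had 96 pairs of a gene and a summit but 93 distinct summits, since Psmb5 and Psmb11 shared their promoter summits and Psme1 and Psme2 shared a summit with a score of 4.02 that lay 116 bp from the TSS of Emc9. Within 1 kb of a TSS, 55 distinct summits served the 47 genes, and no member shared a promoter summit with another member.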
